A study of Mus musculus with 14 samples.

Results

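Lungs of jnk1-/- and wild-type mice were compared at the end of the same ventilation. JNK1, the product of Mapk8, is a stress-activated MAP kinase that phosphorylates c-Jun and related factors of the AP-1 family, which bind the promoters of early response genes. It is switched on in lung cells by stretch, by oxidants and by inflammatory cytokines. MAP kinases of this group act together with immediate early factors, Gadd45 proteins and the heat shock response in injured tissue. The comparison asks which single genes stood at another level in ventilated lungs without JNK1.

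The 8 arrays of this comparison were the 4 titled as jnk1-/- ventilation and the 4 titled as C57/B ventilation, the second of which is spelled C47/B. They belong to a series of 14 arrays, which also holds 3 wild-type and 3 jnk1-/- control lungs. All mice were adults in the C57/BL6 background, matched for age and sex by the study's account, and exact ages were not given in the sources used here. The wild-type mice were purchased and the jnk1-/- mice had been generated in a research laboratory, so that genotype and colony cannot be told apart. Anesthesia was with ketamine and acepromazine. The ventilated mice breathed room air through a tracheostomy for 8 hours at a tidal volume of 10 ml/kg and 2 cmH2O of positive end-expiratory pressure, whereas the controls were killed right after anesthesia. Each array carried Cy5-stained cRNA from lung tissue on a CodeLink bioarray. By the study's methods the arrays of a group came from different animals, and each array is taken as 1 mouse.

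Of 19621 probes, 15353 named 1 gene, 91 named several and 4177 named none, and 13923 genes were measured. Levels are log2 signals after cyclic loess normalization. In the authors' own normalized table no signal falls below 3.12, the authors' floor below, and 24.8% of the ventilated values sit on it. Within a group the arrays correlated at 0.924 to 0.946. The standard deviation of the difference between 2 arrays was 0.927 to 1.08 in wild-type and 1.06 to 1.26 in jnk1-/- mice. Of 9 genes that define alveolar, airway and vascular cells of the lung, 8 were above the authors' floor on all 8 arrays. Fewer cells of a type and less RNA per cell cannot be told apart in whole lung.

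The transcript of the deleted kinase was too dim on this array to check the genotype. Signals of the Mapk8 probe were 3.46, 4.48, 2.05 and 4.44 in wild-type and 3.94, 2.80, 1.29 and 3.03 in jnk1-/- ventilated lungs. The groups overlapped, and 2 wild-type and 3 jnk1-/- arrays lay at the authors' floor. The difference was −0.84 (standard error 0.76, adjusted p = 0.774 from limma, p = 0.343 in a two-sided exact permutation test). The labels and methods do not say whether this probe lies inside the deleted part of the gene, so it checks nothing. With 4 arrays against 4 the smallest p of that permutation test is 0.0286. Mapk9, the gene of JNK2, read 7.15, 6.90, 7.30 and 7.27 against 6.04, 6.41, 7.50 and 7.04 (difference −0.41, adjusted p = 0.780). Of the probes for Mapk10, the gene of JNK3, 1 was at the authors' floor on all 8 arrays and the other differed by −0.16 (adjusted p = 0.905).

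Among all 19621 probes, 120 differed between the ventilated genotypes at an adjusted p under 0.05, which is 0.612% of the probes. Higher in jnk1-/- lungs were 60 (0.306%), and lower were 60 (0.306%). That even split depended on the scaling, since after median centring, which shifted the median of all probes to −0.09, 84 passed and 33.3% of them were higher. At an unadjusted p under 0.05 there were 2099 probes (10.7%). For all 120 the 4 jnk1-/- arrays lay wholly above or wholly below the 4 wild-type arrays, which held for 6.94% of all probes. The 120 were chosen by the difference between these same arrays, so this separation is no further support. Their 107 named probes stood for 106 genes, and 13 probes had no name. In 87 probes no ventilated array was at the authors' floor. Their differences ran from 0.76 to 6.37 on the log2 scale, and 27 exceeded 4-fold.

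**Figure D1:**
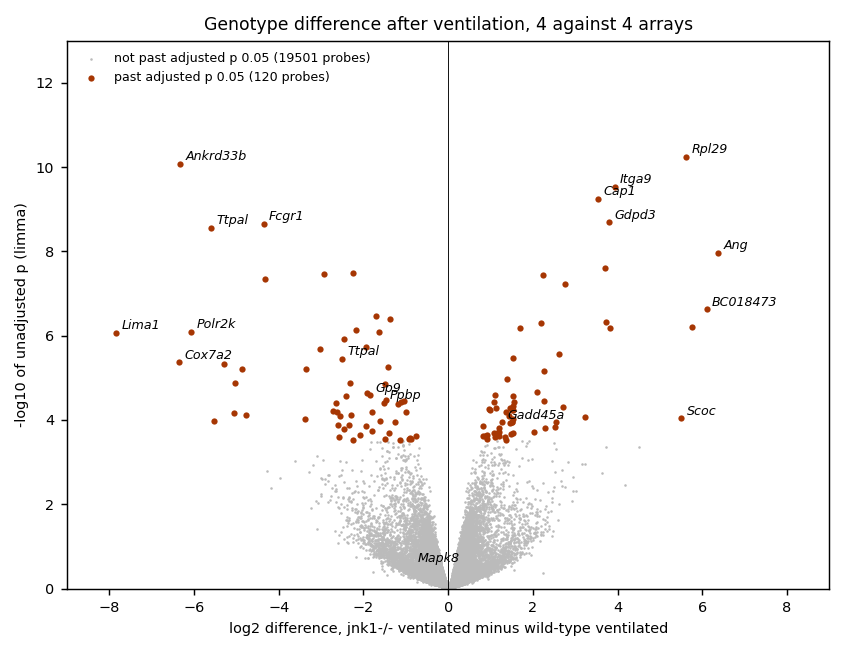
Each point is a probe, with the log2 difference between jnk1-/- and wild-type ventilated lungs on the x axis and −log10 of the unadjusted limma p on the y axis. The 120 probes past an adjusted p of 0.05 are in brown, 60 on either side. Among those with no array at the authors' floor Cox7a2 (−6.37) and Rpl29 (5.62) lie farthest out, and the places of probes at the floor, such as Lima1, are not exact. Mapk8 lies among the grey probes.

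The 24 probes with the largest differences, 12 in each direction, included genes of the ribosome, the respiratory chain, the actin cytoskeleton, cilia and the transcription machinery. In 11 of the 24 all 4 arrays of a genotype were at the authors' floor, so that their rank rests on values below it. In the authors' table Thg1l differed by 1.72 and Norad by −1.65, next to 5.76 and −4.77 here. Rpl29, a protein of the large ribosomal subunit, read 7.01, 7.17, 7.34 and 6.93 in wild-type and 12.78, 12.09, 13.04 and 13.03 in jnk1-/- ventilated lungs. The gap of 5.62 (standard error 0.26, adjusted p = 8.22e-07 from limma) was many times the spread inside either group. Ribosomal protein genes have many near-identical copies, and which copy this probe reads is uncertain.

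Itga9, the integrin alpha 9 chain, had signals of 5.09, 5.04, 5.38 and 5.60 against 8.87, 9.12, 9.38 and 9.46. Gdpd3, a lysophospholipase D, had 6.66, 6.96, 6.77 and 6.58 against 10.51, 10.40, 10.51 and 10.71. Cap1, which recycles actin monomers, had 5.57, 5.64, 5.63 and 5.69 against 8.71, 8.92, 9.64 and 9.45. These 3 genes were all measured well above the floor, and stood 15.2-fold, 13.8-fold and 11.7-fold higher in jnk1-/- lungs (adjusted p = 1.92e-06, 7.12e-06 and 2.75e-06). Parp14, an ADP-ribosyltransferase of immune cells, differed by 3.73 (adjusted p = 5.19e-04 from limma). Sh3bp4, an endocytic adaptor, differed by 3.83 (adjusted p = 5.94e-04 from limma), with 1 wild-type array at the authors' floor. Each was called by 1 of its probes.

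Several genes were visible in jnk1-/- lungs and near or at the floor in wild-type lungs. Ang, the ribonuclease angiogenin, read 1.65, 3.48, 3.09 and 2.76 in wild-type lungs, 3 of them at the authors' floor, and 10.18, 8.80, 8.44 and 9.07 in jnk1-/- lungs (difference 6.37, standard error 0.46, adjusted p = 2.67e-05). BC018473 was at that floor on all 4 wild-type arrays and was at least 17.9-fold higher in jnk1-/- lungs (adjusted p = 3.10e-04). Scoc, a regulator of autophagy, was at least 8.31-fold higher (adjusted p = 0.0232) and Thg1l, which adds a guanosine to histidine tRNA, at least 3.30-fold higher (adjusted p = 5.94e-04). Supt16, a subunit of the histone chaperone FACT, differed by 3.23 (adjusted p = 0.0223), with 2 wild-type arrays at the floor. For the matrix protein gene Matn4 all 4 wild-type and 2 jnk1-/- arrays were at the authors' floor. Its difference of 3.69 shrank to 0.17 in the authors' table, a bound of at least 1.13-fold.

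On the lower side the differences were as wide. Cox7a2, a subunit of cytochrome c oxidase in the respiratory chain, read 11.58, 11.90, 11.76 and 11.94 in wild-type and 5.67, 5.30, 5.37 and 5.38 in jnk1-/- ventilated lungs. No array of either group was at the floor, and the level was 82.5-fold lower (log2 difference −6.37, standard error 0.80, adjusted p = 0.00256). Ankrd33b read 9.44, 9.48, 9.33 and 9.43 against 2.57, 3.13, 2.68 and 3.95 (difference −6.33, standard error 0.30, adjusted p = 8.22e-07), with 3 jnk1-/- arrays at the floor. Ttpal, related to the vitamin E transfer protein, read 8.99, 9.45, 8.87 and 8.95 against 2.95, 3.76, 2.86 and 4.30, and its second probe was lower too (−5.60 and −2.51, adjusted p = 7.62e-06 and 0.00216).

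A further group was at the authors' floor on all 4 jnk1-/- arrays, so that only a bound can be given. Lima1, an actin-bundling protein of junctions, read 7.31, 8.08, 7.83 and 8.45 in wild-type lungs and was at least 22.2-fold lower. Ift46, a part of the transport particle that builds cilia, read 7.62, 8.16, 7.92 and 8.03 and was at least 22.4-fold lower. Polr2k, a subunit shared by the RNA polymerases, read 6.81, 7.35, 7.05 and 7.34 and was at least 11.6-fold lower. Fcgr1, the high-affinity IgG receptor of macrophages, read 6.49, 6.84, 7.84 and 6.41 and was at least 10.5-fold lower. For these 4 genes no wild-type array reached the floor, and the adjusted p from limma was 6.43e-04, 0.00277, 6.43e-04 and 7.12e-06. Amacr, an enzyme of branched fatty acid oxidation, was at least 10.2-fold lower (adjusted p = 0.0259), and the noncoding RNA Norad at least 3.13-fold (adjusted p = 0.0210). The unnamed probe 15869 was at least 6.26-fold lower (adjusted p = 0.00327). Hoatz, a gene of motile cilia, and Pttg1, the mitotic protein securin, differed by −5.05 and −5.03 with 3 and 2 jnk1-/- arrays at the floor (adjusted p = 0.0189 and 0.00633).

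**Figure D2:**
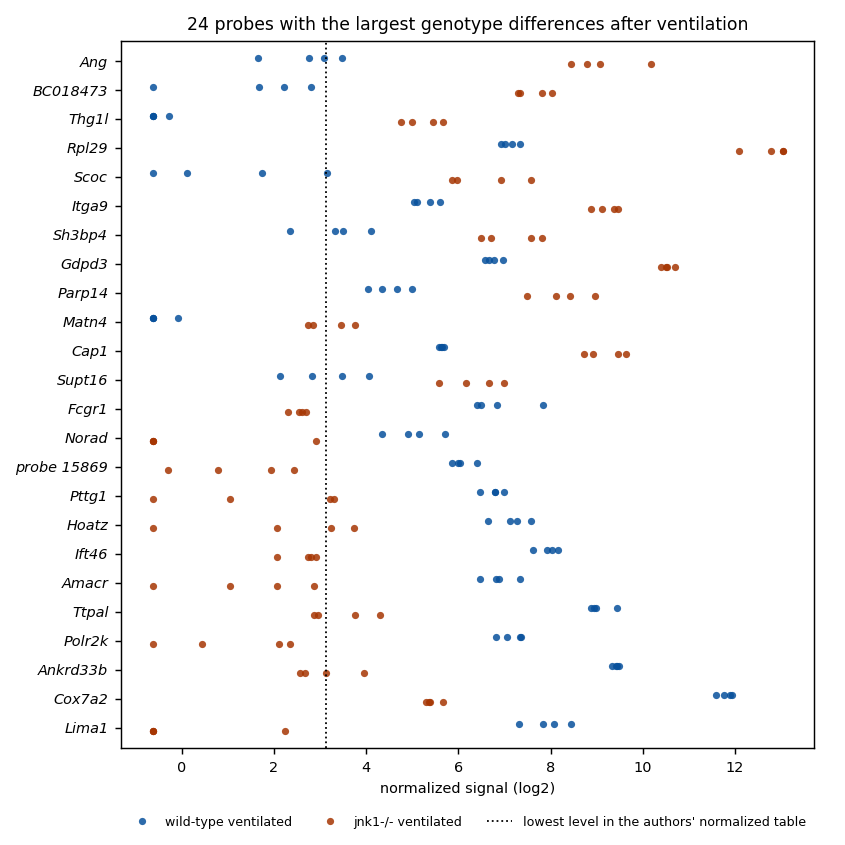
For the 12 probes with the largest difference in each direction, each dot is the normalized log2 signal of 1 ventilated array, blue for wild-type and brown for jnk1-/-, and the dotted line is the lowest level in the authors' table. The 2 colours do not overlap for any of the 24 probes, which the choice of probes required. For many the lower group lies left of the line at 3.12.

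When each ventilated array was left out in turn, 19 of the 24 probes stayed past the threshold in all 8 fits. The other 5 (Scoc, Supt16, Amacr, Hoatz and Norad) did so in 2 or 3 of 8. Of the whole set of 120, 47 passed in all 8 fits and 5 in none. The sign of the 120 could not change in these fits, since the genotypes did not overlap for any of them. Of the 24, BC018473, Thg1l, Scoc, Amacr, Hoatz, Pttg1 and Norad no longer passed when no floor was set beyond the lowest value.

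Most genes with more than 1 probe were called by 1 probe alone. That was so for 19 of 20 genes, with 24 further probes of these genes not past the threshold. Parp14 differed by 3.73 on 1 probe and by −0.38 and −0.13 on the others. Ttl, the ligase that restores the tyrosine of tubulin, read 9.57, 9.36, 9.54 and 9.52 against 4.55, 4.93, 5.84 and 5.32 on 1 probe (−4.34), while its other probes differed by −0.60 and −0.30. S100a10, the partner of annexin A2, differed by 2.25 and by 0.37. Sh3bp4 showed 3.83 and 0.25, and Trio 2.54 and −0.28. In other genes the probes had the same sign, as for Pkp2, a plakophilin of desmosomes (0.81 past the threshold and 1.22 not), and Zc3h11a (2.62 past it and 0.85 not). Of the 24 further probes 14 had the sign of the probe past the threshold, and the stretch of transcript behind each probe is unknown here.

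Much of this genotype difference was also present in lungs that were not ventilated. In control lungs, other arrays with none shared, 108 of the 120 probes had the same sign, against 56.2% of all probes. Both comparisons nevertheless came from the same normalization and the same fit, with the spread of each probe pooled over all groups. A small pooled spread helped the 120 to be chosen and makes passing in controls easier as well. The share passing there is therefore not independent of the choice. In controls 49 of the 120 passed the threshold too (23 higher and 26 lower, none in the opposite direction), where 3.99% of all probes did. Of the 24 probes with the largest differences, 11 of the 12 higher and 6 of the 12 lower also passed there. Rpl29 read 7.25, 7.46 and 6.64 in wild-type and 11.95, 11.87 and 12.47 in jnk1-/- controls, and Ankrd33b 9.13, 9.04 and 8.78 against 3.27, 2.26 and 2.42. These gaps were 4.98 and −6.33, next to 5.62 and −6.33 after ventilation. The jnk1-/- control arrays also carried an excess of genes of other tissues, since 16 of 35 skeletal muscle and 17 of 42 squamous epithelium genes were higher there. After ventilation none of these muscle or squamous genes was past the threshold, and their part in the control values was not tested.

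Some of the largest differences did not pass in controls, where the jnk1-/- arrays were uneven. Cox7a2 read 6.58, 10.95 and 11.58 in the 3 jnk1-/- controls and 11.98, 11.84 and 11.94 in wild-type controls. Ift46 read 3.70, 7.59 and 7.37 against 8.51, 7.70 and 7.91, and Hoatz 3.16, 5.80 and 5.71 against 7.27, 6.48 and 7.06. In all 3 genes it was jnk1-/- control replicate 1 that lay near the ventilated jnk1-/- arrays. Lima1 was uneven in another order, at 7.18, 2.79 and 5.08.

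For 6 of the 120 probes the genotype difference itself changed with ventilation at an adjusted p under 0.05, as it did for 0.398% of all probes. The 120 were chosen by the ventilated difference, which is part of this test, so their share is raised by the choice. Rbm45, an RNA-binding protein of neurons, read 6.85, 7.26, 8.05 and 7.52 in ventilated jnk1-/- lungs, 5.22, 5.28, 5.02 and 5.37 in ventilated wild-type lungs and 5.02, 4.84 and 4.98 in jnk1-/- controls. Every ventilated jnk1-/- array lay above all arrays of the other 3 groups (difference of differences 2.39, adjusted p = 0.0177). Fxyd6, a regulator of the sodium pump, went the other way, with 2.35, 3.21, 2.82 and 3.41 in ventilated jnk1-/- lungs against 5.01, 5.27, 5.24 and 4.97 in ventilated wild-type lungs and 5.32, 5.61 and 5.16 in jnk1-/- controls (−2.37, adjusted p = 0.0206). On 3 of the 4 ventilated jnk1-/- arrays Fxyd6 was at the authors' floor, so the size of its difference is uncertain. The transcription factor gene Tbx6 was at 5.99, 5.33, 5.29 and 5.78 in ventilated jnk1-/- lungs, at 4.58, 4.56, 4.48 and 4.32 in ventilated wild-type lungs and at 3.61, 3.93 and 4.38 in jnk1-/- controls (1.95, adjusted p = 0.0291). Its genotype difference after ventilation passed in 1 of the 8 fits that left out an array, whereas those of Rbm45 and Fxyd6 passed in 8. The remaining probes, for Matn4, Pax8 and Vmn1r172, were at the authors' floor on all 4 wild-type ventilated arrays and on 2, 2 and 4 of the jnk1-/- ventilated arrays. Vmn1r172, Ankrd63 and Fndc4 were at that floor on all 8 ventilated arrays, and no fold is given for them.

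**Figure D3:**
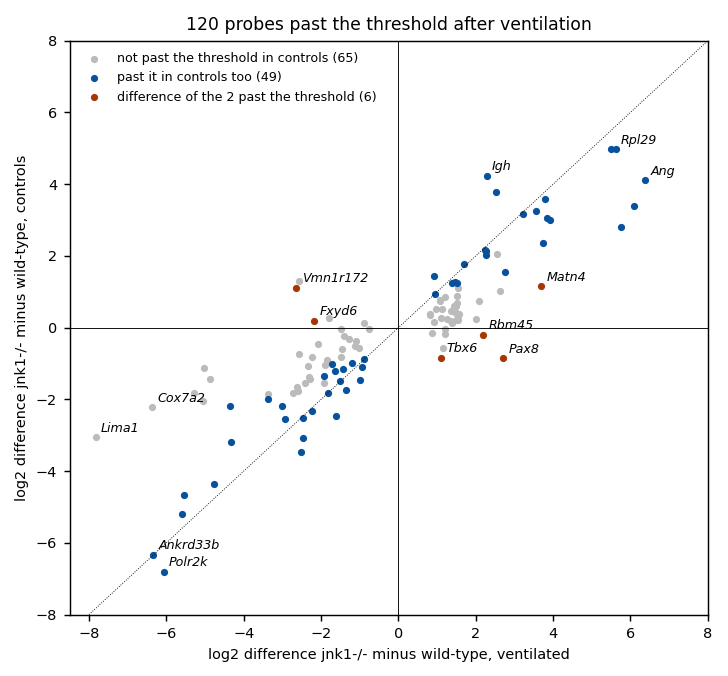
Each of the 120 probes is placed by its log2 difference between jnk1-/- and wild-type lungs after ventilation (x axis) and in controls (y axis), and the dotted line marks equal differences. In blue are the 49 past the threshold in controls too, and in brown the 6 whose difference changed with ventilation, among them Rbm45 and Fxyd6.

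Early response and stress genes, which act downstream of JNK and of related kinases, made up the higher side of the gene lists. Of 705 list genes measured, each by its brightest probe, 10 passed the threshold (1.42%), 6 higher and 4 lower, in 6 of 33 lists. The other 27 lists had none. Of all probes 0.612% passed, and of genes with a RefSeq position 0.765% had any probe that did. Of 20 immediate early factors 3 were higher and none lower, with a median difference of 0.63 where the median of all probes was 0.01. At an unadjusted 0.05, 8 of them were higher and 2 lower (50%, next to 10.7% of all probes). The lists were drawn up with earlier results of these data known and use a gene's brightest probe. Their shares are therefore no independent support and are not like for like with those of all probes. Ier2 read 7.55, 7.62, 7.83 and 7.56 in wild-type and 8.89, 8.95, 8.55 and 8.48 in jnk1-/- ventilated lungs. Btg2, an antiproliferative early gene, read 5.53, 6.41, 5.24 and 5.73 against 7.18, 6.98, 6.56 and 7.00. Ier5 read 6.42, 7.07, 6.69 and 6.90 against 8.61, 8.42, 7.73 and 7.73. Every jnk1-/- array lay above every wild-type array for these 3 genes, by 1.08, 1.20 and 1.35 on average (adjusted p = 0.0138, 0.0436 and 0.0442). In controls the differences were 0.77, 0.86 and 0.20 (adjusted p = 0.0516, 0.0975 and 0.751), and the median of the list was 0.42.

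Of 22 genes of AP-1 and other factors that JNK acts on, only Mafk passed the threshold. Of their differences 21 were positive, with a median of 0.46 after ventilation and 0.35 in controls. Mafk, a small Maf protein that pairs with other bZIP factors, read 6.29, 6.93, 6.75 and 6.76 against 8.20, 8.31, 7.41 and 8.28 (1.37, adjusted p = 0.0492). Atf3 stood at 6.09, 7.04, 6.83 and 6.48 against 10.57, 9.94, 6.54 and 9.31, a difference of 2.48 that did not pass (adjusted p = 0.197). Junb stood at 4.78, 6.16, 5.47 and 5.70 against 7.92, 7.20, 6.42 and 7.09 (1.63, adjusted p = 0.166), and Jun itself differed by 0.62 (adjusted p = 0.582).

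Genes of growth arrest and amino acid stress gave 1 call each. Gadd45a, a stress sensor that binds MAP kinase kinase kinases and stalls the cell cycle, read 9.47, 9.36, 9.69 and 9.37 in wild-type and 11.10, 10.93, 10.06 and 10.85 in jnk1-/- ventilated lungs. It was 2.40-fold higher (log2 difference 1.26, standard error 0.22, adjusted p = 0.0259), and in controls the difference was 0.25 (adjusted p = 0.615). Whether the difference changed with ventilation did not pass its own test (adjusted p = 0.241). Chac1, which degrades glutathione and is a target of ATF4, read 4.07, 5.26, 4.72 and 4.55 against 7.62, 7.16, 6.12 and 5.77 (2.02, adjusted p = 0.0391). Atf4, which drives amino acid synthesis genes under stress, read 12.87, 13.42, 13.08 and 12.73 against 13.65, 13.72, 13.21 and 13.72. Its groups overlapped (0.55, adjusted p = 0.288). Of 28 genes of this response 25 had a positive difference, with a median of 0.32. Of the other genes measured by PCR in the study, Ccn5 differed by 0.45 (adjusted p = 0.699) and Mmp8, the neutrophil collagenase, by 0.05 (adjusted p = 0.979).

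Promoters of genes past the threshold were searched on both strands for 3 sites of stress-regulated bZIP factors, in windows of 300 bases from 250 before to 50 after the RefSeq start (build GRCm38.p6). The AP-1 site TGANTCA was in 6.83% of the 11072 promoters of measured genes, in 2 of 41 genes that were higher (4.88%) and in 3 of 39 that were lower (7.69%). The cyclic AMP response element TGACGTCA was in 2.71% of all, in 2 of 41 higher (4.88%) and 2 of 39 lower (5.13%). The amino acid response sequence TGATGCAA was in 0.677% of all and in 1 of 41 higher genes (2.44%), which was Chac1, and in none of the lower. Shares this small rest on 1 to 3 genes and say nothing of which factor acts. The promoters of the stress genes and of the blood and airway genes below that held a site are shown, with the site in capitals.
Chac1, chr2:119350992-119351291, plus strand: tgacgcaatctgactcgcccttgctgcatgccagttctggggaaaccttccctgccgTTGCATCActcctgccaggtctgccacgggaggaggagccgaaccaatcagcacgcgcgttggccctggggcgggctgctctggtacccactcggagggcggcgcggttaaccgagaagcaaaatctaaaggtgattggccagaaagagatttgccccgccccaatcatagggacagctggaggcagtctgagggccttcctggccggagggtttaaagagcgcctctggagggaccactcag
Btg2, chr1:134079106-134079405, minus strand: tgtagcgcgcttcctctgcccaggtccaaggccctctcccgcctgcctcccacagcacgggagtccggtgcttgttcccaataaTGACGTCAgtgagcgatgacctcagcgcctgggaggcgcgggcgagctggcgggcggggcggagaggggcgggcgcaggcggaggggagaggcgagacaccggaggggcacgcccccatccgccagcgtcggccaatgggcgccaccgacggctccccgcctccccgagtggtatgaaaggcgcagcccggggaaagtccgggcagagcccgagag
Ppbp, chr5:90768268-90768567, plus strand: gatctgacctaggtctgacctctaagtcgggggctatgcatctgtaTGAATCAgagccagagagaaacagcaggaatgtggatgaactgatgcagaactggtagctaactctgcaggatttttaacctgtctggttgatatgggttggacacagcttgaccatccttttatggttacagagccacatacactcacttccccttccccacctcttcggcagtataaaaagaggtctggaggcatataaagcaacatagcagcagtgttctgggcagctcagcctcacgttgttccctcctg
Bpifa1, chr2:154142630-154142929, plus strand: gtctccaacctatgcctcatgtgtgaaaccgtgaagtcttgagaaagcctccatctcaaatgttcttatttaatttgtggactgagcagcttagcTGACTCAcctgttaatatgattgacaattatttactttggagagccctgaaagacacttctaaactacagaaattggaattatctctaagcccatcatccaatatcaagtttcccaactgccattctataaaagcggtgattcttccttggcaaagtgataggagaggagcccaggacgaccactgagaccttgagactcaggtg
The capitals mark TTGCATCA, the reverse complement of the amino acid response sequence, in Chac1 and the cyclic AMP response element in Btg2. In Ppbp and Bpifa1 they mark an AP-1 site. For the other list genes past the threshold no promoter with a site was found.

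Heat shock proteins, the chaperones that refold damaged proteins, had high readings on 3 of the 4 jnk1-/- ventilated arrays, but none of 17 passed the threshold. At an unadjusted 0.05, 8 were higher and 1 lower (52.9%, next to 10.7% of all probes), and the median difference was 0.89. The limits given above for shares of the lists hold here too. Dnajb1, a co-chaperone of Hsp70, read 6.90, 7.82, 7.51 and 7.32 in wild-type lungs and 11.54, 11.31, 7.56 and 11.75 in jnk1-/- lungs. Hspd1, the mitochondrial chaperonin, read 7.16, 9.75, 9.14 and 8.61 against 12.38, 11.67, 9.53 and 11.15. In both it was jnk1-/- replicate 3 that lay within the wild-type range, and adjusted p was 0.0987 and 0.126. Without that array, singled out here after its values were seen, 7 of the 17 were higher, with Dnajb1 at 4.15 (adjusted p = 1.91e-05) and Hspd1 at 3.07 (adjusted p = 0.0259). In each of the other 7 fits that left out 1 array, 0 of 17 passed. The mean level of the list was 8.74 to 10.16 in wild-type arrays and 9.60 to 11.18 in jnk1-/- arrays, with replicate 3 lowest. Cryab, a small heat shock protein of muscle and lens, had a negative difference (−1.39, adjusted p = 0.222).

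Calls among the stress genes depended on single arrays. Without jnk1-/- replicate 3, 26 list genes passed in place of 10, and 260 probes in place of 120. Among the added genes were Atf3 (3.33, adjusted p = 0.00426), Jun (1.07, adjusted p = 0.0119) and Cebpb (1.36, adjusted p = 0.0240), a factor of the acute phase. Without wild-type replicate 1 none of the list genes passed and 52 probes did. Of the 8 fits that left out 1 array, Ier2 passed in 5, Chac1 in 3 and Btg2 in 2. Gadd45a, Ier5 and Mafk passed only in the fit without jnk1-/- replicate 3. None of these genes passed when only the 8 ventilated arrays were fitted.

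**Figure D4:**
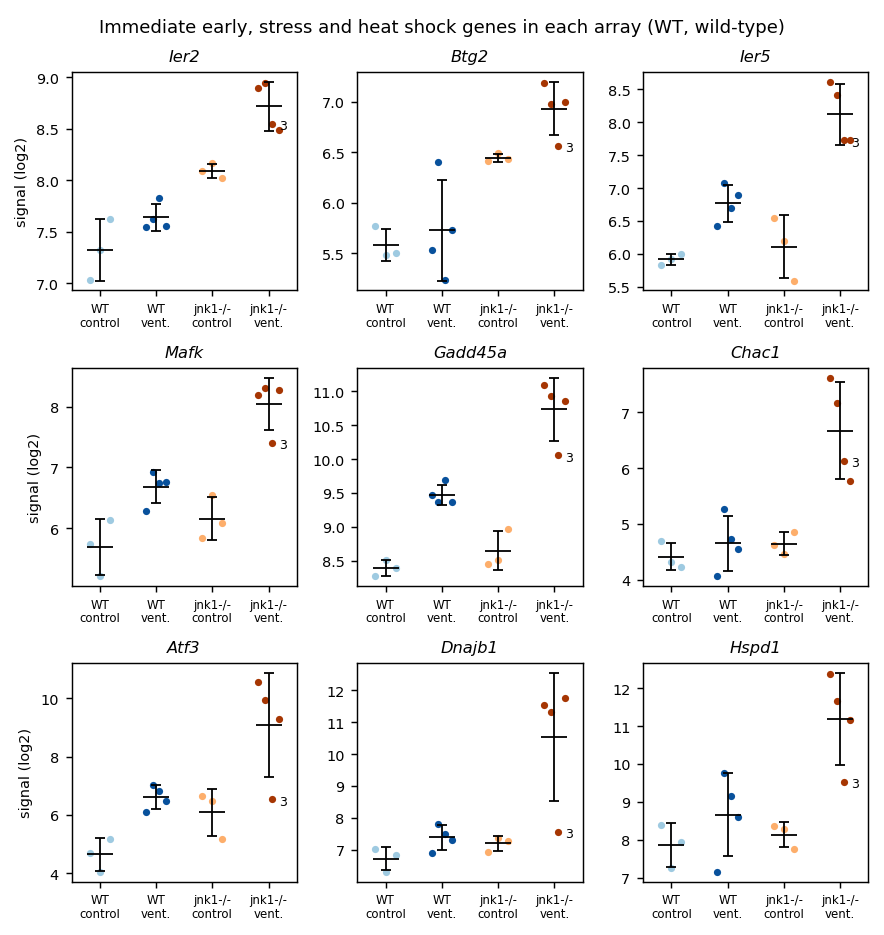
Each panel is a gene, each dot the normalized log2 signal of 1 array in the 4 groups, and the black marks are the group mean ± 1 SD (n = 3 controls or 4 ventilated). The digit beside a dot marks jnk1-/- ventilated replicate 3, which lies with or near the wild-type arrays for Atf3, Dnajb1 and Hspd1 and above them for the other genes.

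A few platelet genes were lower in jnk1-/- lungs. Of 11 platelet and erythroid genes measured, 3 were lower, as were 0.306% of all probes, and none higher. All 3 are platelet genes. The list had a median of −1.22, and 10 of 11 differences were negative. Ppbp, the platelet basic chemokine precursor stored in granules, read 10.67, 10.13, 10.34 and 10.35 in wild-type and 8.99, 8.67, 8.55 and 9.24 in jnk1-/- ventilated lungs (−1.51, adjusted p = 0.0138). Gp9, a chain of the receptor for von Willebrand factor, read 7.43, 7.08, 6.52 and 7.58 against 5.16, 4.70, 5.59 and 5.78 (−1.84, adjusted p = 0.0110). Treml1, a receptor of platelet granules, read 7.87, 6.80, 7.11 and 7.55 against 5.02, 4.96, 5.89 and 6.22 (−1.81, adjusted p = 0.0368). No array of one genotype reached the other for these 3 genes. The mean level of the list was 5.51 to 6.14 in wild-type and 4.88 to 4.96 in jnk1-/- arrays.

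The platelet genes differed without ventilation too, 2 of the 3 past the threshold. In controls Ppbp differed by −1.48 (adjusted p = 0.0142), Treml1 by −1.82 (adjusted p = 0.0272) and Gp9 by −0.90 (adjusted p = 0.141). Without wild-type replicate 1 none of the 3 passed, and of the 8 such fits Gp9 passed in 7, Ppbp in 6 and Treml1 in 3.

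Airway and immune genes gave single calls. Bpifa1, a secreted defence protein of the upper airway, read 10.86, 11.08, 10.91 and 12.61 against 8.16, 9.80, 9.73 and 8.83 (−2.24, adjusted p = 0.0488). It was the only one of 14 club and goblet cell genes to pass, and passed in 1 of the 8 fits that left out an array. Ccl19, the chemokine that draws T cells and dendritic cells, read 9.83, 10.90, 10.72 and 10.28 against 6.46, 7.66, 7.95 and 7.58 (−3.02, adjusted p = 0.00140). Ccl27a, a chemokine for skin-homing T cells, read 7.26, 7.61, 7.47 and 7.47 against 6.09, 6.08, 5.96 and 6.22 (−1.36, adjusted p = 4.71e-04). Both chemokines were lower in jnk1-/- controls as well, by −2.20 and −1.74 (adjusted p = 0.0146 and 1.41e-04). They and other genes named outside the largest differences and the lists were chosen after their values were seen.

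**Figure D5:**
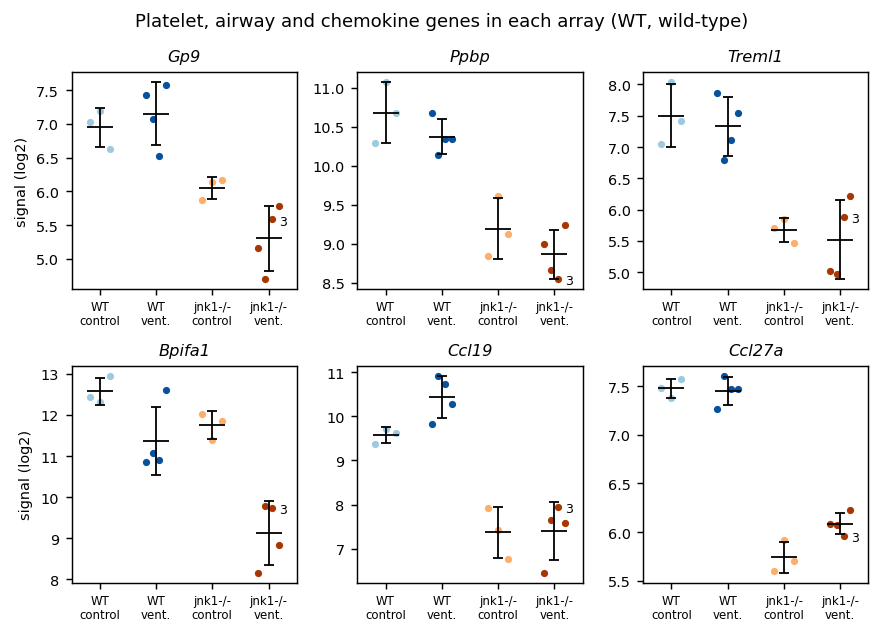
Each panel is a gene, each dot the normalized log2 signal of 1 array in the 4 groups, with the group mean ± 1 SD in black (n = 3 controls or 4 ventilated) and a digit beside jnk1-/- ventilated replicate 3. The platelet genes Gp9, Ppbp and Treml1 and the chemokines Ccl19 and Ccl27a have lower means in jnk1-/- lungs with and without ventilation (Gp9 in controls not past the threshold), and Bpifa1 has its lowest mean in ventilated jnk1-/- lungs.

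The list of inflammatory cytokines and chemokines, which does not hold Ccl19, Ccl27a or Ppbp, had no gene past the threshold. Of its 32 genes none passed (median −0.03), with 4 higher and 2 lower at an unadjusted 0.05 (18.8%, next to 10.7% of all probes). None passed among 26 genes of NF-kB and TNF receptor signalling (median 0.15) or 22 of the acute phase (median 0.18). Il1b read 9.45, 9.19, 9.93 and 9.47 in wild-type and 11.74, 9.89, 10.20 and 11.50 in jnk1-/- lungs (1.33, adjusted p = 0.228). Of 31 genes of the JNK and stress MAP kinase cascade none passed (median 0.05), although Dusp7, an ERK phosphatase outside that list, was higher by 0.82 (adjusted p = 0.0307). Dusp7 passed in 2 of the 8 fits that left out an array. Among 19 neutrophil genes 13 had a negative difference and none passed, with a median of −0.39. The lactoferrin gene Ltf, of neutrophil granules, read 9.63, 7.68, 9.81 and 9.24 against 5.50, 7.14, 7.09 and 6.45 (−2.54, adjusted p = 0.0882). The mean level of neutrophil genes was 6.57 to 8.02 in wild-type and 6.16 to 7.14 in jnk1-/- arrays.

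No gene of the matrix or barrier lists passed. Of 45 matrix and protease genes 32 differences were positive (median 0.29, lowest −2.38), and of 35 junction and fluid clearance genes 29 were (median 0.28, lowest −1.15). Markers of alveolar type 2 cells (median 0.26 over 12 genes), type 1 cells (0.21 over 9) and endothelium (0.22 over 18) had no call. Nor had those of macrophages (0.05 over 21) and B cells (0.04 over 14). T and NK cells (−0.19 over 25) and ciliated cells (−0.25 over 14) had none either. Igh, an immunoglobulin heavy chain gene outside the B cell list, passed the threshold. It was higher by 2.03 to 2.52 when 1 array was left out, and passed in 3 of those 8 fits. No muscle or squamous marker passed, with medians of −0.03 over 35 and −0.09 over 42 genes.

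The places of these genes on the chromosomes are given as a description. Of 13719 genes with a RefSeq position 105 were among those past the threshold, or 0.765%, and the share was highest on chromosomes 9 (13 of 772, 1.68%), 14 (8 of 477, 1.68%), 15 (9 of 544, 1.65%) and 2 (18 of 1142, 1.58%). Chromosomes 19 and X had 0 of 485 and 0 of 457. Of the 50 measured genes nearest to Mapk8 on chromosome 14, 25 on either side, 2 were (4%). These were its next neighbour Arhgap22, a Rac-inactivating protein, at 6.52, 6.50, 6.77 and 6.55 in wild-type and 8.06, 8.64, 7.76 and 7.97 in jnk1-/- lungs, and Wdfy4, needed for cross-presentation by dendritic cells, at 9.02, 8.89, 9.16 and 9.35 against 7.72, 7.78, 7.77 and 7.33. The first was higher by 1.52 (adjusted p = 0.00213) and for the second the difference was −1.46 (adjusted p = 0.0133).

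Over all chromosomes 20 runs, defined after the values were seen as neighbours no more than 20 measured genes apart, held 56 of the 105 genes. Arhgap22 and Wdfy4 were among them. How many genes would fall in such runs at random places was not tested. The longest run, on chromosome 15, held 7 within 45 measured genes. Amacr, Ankrd33b, Snord123, Nipal2 and Polr2k were lower and Trio and Dap higher. Snord123, a small nucleolar RNA, read 7.68, 8.00, 7.67 and 8.05 against 5.89, 5.51, 5.59 and 5.42, and differed by −2.25 after ventilation and by −2.32 in controls. In controls 6 of these 7 genes passed as well. On chromosome 4, Ccl27a, Ccl19 and Vcp, an ATPase of protein degradation, lay within 6 measured genes. Vcp read 10.71, 10.85, 10.93 and 10.85 in wild-type and 11.99, 12.41, 12.33 and 12.46 in jnk1-/- lungs (1.46, adjusted p = 0.0264), and passed in 2 of the 8 fits that left out an array. Runs on chromosomes 15, 4 and 14 thus held genes of both directions. Genotype, colony and any chromosome segment that differs between the colonies cannot be told apart here.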

How the data were processed

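Right lung RNA of the mice was hybridised, 1 array a sample, to CodeLink 20K bioarrays. Per the labels and methods, the authors deposited log2 spot intensity for each array and a second log2 table normalized by cyclic loess, whose direction and base matched the arrays (correlation at least 0.999). Quality flags were not given in the sources used here. From the array values, cyclic loess over all pairs of 14 arrays (span 0.7, 3 rounds) was computed, leaving out the lowest value (−6.86), and a floor was set at the 1st percentile (−0.63). Group means were fitted to 14 arrays in limma 3.58.1 (R 4.3.3) with Benjamini-Hochberg adjustment over 19621 probes, and the code was tested on simulated data. Each group had 4 ventilated or 3 control arrays, and this number limits the precision. Named genes were 12 probes in each direction, up to 3 called members of each list, Mapk8 to Mapk10 and the genes measured by PCR. The 12 had the largest differences among probes past the threshold whose 4 and 4 arrays did not overlap. For lists a gene's brightest probe was used. Raw array medians of the 8 ventilated arrays were 4.98 to 6.09 and 5.76 to 5.85 after normalization, and 2.00 to 4.52% of values were at the lowest value. Probe names came from the platform annotation, 15142 of them updated through RefSeq. The comparison, gene lists and sites were chosen with earlier results of these data known. Alternatives were another normalization, the authors' table, other fits and floors, the methods' t-test, a replicate block and each array left out. Figures were drawn with matplotlib 3.10.9 in Python 3.11.15.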

Additional observations from a re-analysis of the deposited data

Results flagged for a closer look

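Within each group of 4 ventilated arrays, the gap between 1 array and the other 3 was divided by the group's range. It passed Dixon's 95% critical value in 21 of 220 groups of values tested, or 9.55%. Chance gives about 1 in 20 for independent values that are not cut at a floor. Many of these genes were chosen from the same values, so the 2 shares cannot be compared. For Thg1l, Matn4, Lima1 and Norad the other 3 arrays all sat at the lowest value of −0.63. Of the 21 groups, 7 were flagged for jnk1-/- replicate 3. It was lowest for Mafk (7.41, others 8.20 to 8.31), Atf4 (13.21, others 13.65 to 13.72), Jun (9.76, others 11.40 to 11.69), Hsp90aa1 (11.63, others 13.76 to 14.14), Dnajb1 (7.56, others 11.31 to 11.75) and the mean of interferon-induced genes (5.93, others 6.42 to 6.48), and highest for Lima1 (2.23, others at the lowest value of −0.63). Other jnk1-/- arrays stood apart for Norad (replicate 2, 2.91), Wdfy4 (replicate 4, 7.33), Vmn1r172 (replicate 4, −0.0575), Dusp7 (replicate 2, 8.13) and Zbp1 (replicate 1, 3.11).

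Among wild-type ventilated arrays, replicate 4 was highest for Thg1l (−0.27), Matn4 (−0.0867), Bpifa1 (12.61, others 10.86 to 11.08), the mean of the p53, Gadd45 and apoptosis list (7.28) and the mean of fibroblast and smooth muscle genes (9.17). Wild-type replicate 3 was highest for Arhgap22 (6.77), Jun (10.69) and the mean of squamous epithelium genes (4.74), and lowest for Mcam (9.62).

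The genotype difference was another after ventilation than in controls, by limma's test of the difference, for Rbm45 (2.39, adjusted p = 0.0177), Fxyd6 (−2.37, adjusted p = 0.0206), Tbx6 (1.95, adjusted p = 0.0291), Vmn1r172 (−3.76, adjusted p = 0.0303), Matn4 (2.53, adjusted p = 0.0330) and Pax8 (3.55, adjusted p = 0.0489). Of these, Fxyd6 was at the authors' floor on 3 ventilated jnk1-/- arrays, and Vmn1r172, Matn4 and Pax8 on all 4 ventilated wild-type arrays. Vmn1r172 was at it on all 4 ventilated jnk1-/- arrays too, so its ventilated difference lies wholly below that floor. The genotype difference of Tbx6 after ventilation passed in 1 of the 8 fits that left out an array.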

How the results depend on the processing

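The 120 probes past the threshold kept their sign under every alternative run, except in the authors' table, where 117 did and 3 were at 0, and without dim probes, where the 111 still measured did. Where an array was left out or the same values were fitted in another way, the sign could not change, since the genotypes did not overlap. Their number stayed within 1.5 times of 120 under quantile normalization, fast cyclic loess, median centring (84, of which 33.3% higher in place of an even split), the authors' table, another floor and no floor. It was 73 with loess and fit on the 8 ventilated arrays alone, 76 with the fit on these 8 alone, 256 with an intensity trend, 182 with array weights and 216 without dim probes, and 52 (wild-type replicate 1) to 260 (jnk1-/- replicate 3) when 1 array was left out. The methods' t-test gave 17 after adjustment and 1706 before it, and 15 and 742 by the methods' stringent and less stringent rules, against 108 and 762 with limma. The labels give replicate numbers but do not say whether these pair the samples. Arrays of the same number deviated together at 0.02 to 0.08 and others at −0.07 to 0.10, which cannot settle it. With the number as a replicate block on the 8 ventilated arrays, 19 probes and 0 list genes passed. The fit on these 8 without a block gave 76 probes.

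The 10 list genes became 6 under quantile normalization, 5 under fast loess, 5 under median centring, 1 with loess and fit on the 8 arrays, 1 with the fit on these 8, 0 with the t-test, 27 with the trend, 19 without dim probes, and 0 to 26 when 1 array was left out. Of the 34 named probes past the threshold, 23 still passed with no floor. The fit on the 8 ventilated arrays alone kept 22, the replicate block 12 and the methods' t-test 7. Among the largest differences, probes with all 4 arrays of a genotype at the authors' floor were given a bound. For named genes with fewer arrays at that floor a difference was given, and its size is uncertain.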
